A study of Mus musculus with 4 samples.

Results

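Hypothalamic neuropeptides and the histamine-synthesising enzyme were followed in whole mouse brain after lipopolysaccharide (LPS), the endotoxin of Gram-negative bacteria. The set holds 10 genes, taken by the RefSeq accessions of their probes: Hdc, Pomc, Agrp, Npy, Crh, Avp, Oxt, Trh, Cartpt and Hcrt. They were covered by 12 of the 56605 probes and made up 10 of the 23462 genes that the array names. The 4 groups were Nav1.8Cre-ROSA26DTA mice given LPS, wild-type mice given LPS, Nav1.8Cre-ROSA26DTA mice given phosphate-buffered saline (PBS) and wild-type mice given PBS, with 1 array each. LPS was injected into the peritoneum at 20 mg/kg of body weight, and the whole brain was taken 12 hours later; age, sex and background strain are not given in the sources used here. In Nav1.8Cre-ROSA26DTA mice, Cre recombinase expressed from Scn10a, which encodes the sodium channel Nav1.8, turns on the A chain of diphtheria toxin in the lineage that expresses Scn10a, chiefly pain-sensing neurons of peripheral ganglia, which lie outside the tissue measured. The labels do not state if RNA came from 1 mouse or from pooled mice, so group and animal cannot be told apart.

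The hypothalamus holds small groups of neurons that release peptides into the pituitary circulation, into the blood or onto other neurons, and so steer feeding, stress hormones, water balance, metabolism and wakefulness. Brain histamine is made by neurons of the tuberomammillary nucleus, where histidine decarboxylase (Hdc) converts histidine to histamine in 1 step, and also by mast cells, basophils and other myeloid cells. The arcuate nucleus holds the opposed feeding neurons, which express Pomc and Cartpt or Agrp and Npy, and the paraventricular nucleus holds neurons that express Crh, Trh, Avp or Oxt. Several of these genes are also active elsewhere in the brain, Npy, Crh and Cartpt in cortex or amygdala among them, and whole-brain RNA does not separate these sources. In such bulk tissue, fewer cells of a type and less RNA per cell cannot be told apart.

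The promoters of Hdc and of Npy are shown because these genes had the highest and the lowest estimate for LPS among the 10. The sequences are RefSeq's on GRCm38.p6, from 250 bases before the transcript start to 50 bases after it, written along the gene's strand. Hdc is at chr2:126618629-126618928 on the minus strand and Npy at chr6:49822460-49822759 on the plus strand. Capitals mark the motif matches.
Hdc: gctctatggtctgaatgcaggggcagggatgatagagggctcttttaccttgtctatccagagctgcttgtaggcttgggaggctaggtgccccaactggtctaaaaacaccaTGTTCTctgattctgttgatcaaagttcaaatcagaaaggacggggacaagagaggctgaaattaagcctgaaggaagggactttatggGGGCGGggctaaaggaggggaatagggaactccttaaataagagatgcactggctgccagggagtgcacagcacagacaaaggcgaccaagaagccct
Npy: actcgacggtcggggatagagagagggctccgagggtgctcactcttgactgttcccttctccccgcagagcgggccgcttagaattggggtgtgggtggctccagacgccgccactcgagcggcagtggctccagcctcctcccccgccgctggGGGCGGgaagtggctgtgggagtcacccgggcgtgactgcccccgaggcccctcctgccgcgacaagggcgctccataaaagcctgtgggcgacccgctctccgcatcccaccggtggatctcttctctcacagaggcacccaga

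The motifs searched, on both strands, were the TATA box (TATAAA), the GC box (GGGCGG), the cAMP-response half-site (TGACG), the AP-1 site (TGANTCA), the STAT site (TTCNNNGAA) and the glucocorticoid half-site (AGAACA). The Hdc window held a GC box starting 48 bases before the transcript start and a glucocorticoid half-site, read as TGTTCT on the strand shown, starting 137 bases before it. The Npy window held a GC box starting 95 bases before the start. Of 8 members with a promoter in the table, 6 held a GC box, against 35.7% of all 32851 promoters, and 2 held a glucocorticoid half-site (Hdc and Trh), against 19%. A cAMP-response half-site was found in 2 of the 8 (Trh and Cartpt; 20.8% of all promoters), a TATA box in 2 (Pomc and Hcrt; 13.6%), an AP-1 site in 1 (Avp; 7.81%) and a STAT site in 0 (8.3%). In Cartpt the 2 half-site matches overlap as 1 palindrome. These matches describe letters in a window and say nothing of a factor's binding.

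All 10 genes had a probe well above background, the scanner software's call, on each of the 4 arrays. The values below are the processed signal, an intensity, scaled so that the 75th percentile of every array equals 617. Between 66.5% and 69.5% of all spots were well above background and 0 were saturated, and the repeat spots of a probe within an array had a median SD of 0.0436 to 0.0494 on the log2 scale. The scanner's own error of the members' signals was 10% to 13.2% except for Avp, where it reached 18.9%. The 8 neuron markers examined were well above background on every array. The 4 arrays lay on 1 slide, with the injections in separate rows and the genotypes in separate columns, so slide position and group cannot be told apart. Averaged effects set 2 arrays against 2 in a limma model with genotype and injection terms, and each ± below is limma's standard error. With 1 array in a group, no difference between 2 single arrays has a replicate check.

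**Figure D1:**
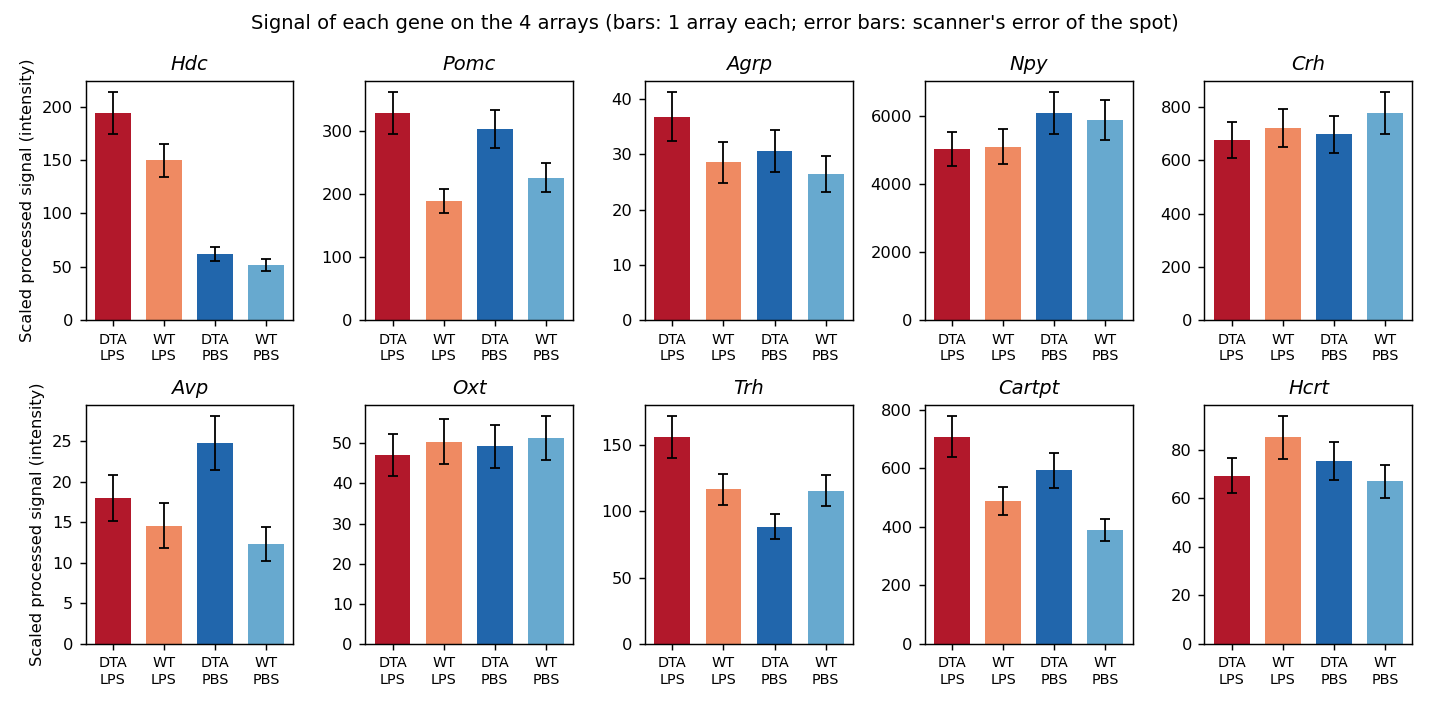
Scaled processed signal (intensity, linear axis from 0) of the 10 genes, 1 bar per array in the order Nav1.8Cre-ROSA26DTA LPS (DTA LPS), wild-type LPS (WT LPS), Nav1.8Cre-ROSA26DTA PBS and wild-type PBS, with the scanner's error of the signal as error bars. Hdc stood at 194 and 149.8 on the LPS arrays, against 62.4 and 51.7 on the PBS arrays, while the other genes differed less between injections.

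After LPS, Hdc rose 3-fold, and it was the only member of the 10 to pass the test. Its scaled signal was 194 in Nav1.8Cre-ROSA26DTA with LPS and 149.8 in wild-type with LPS, against 62.4 in Nav1.8Cre-ROSA26DTA with PBS and 51.7 in wild-type with PBS. Both LPS arrays lay above both PBS arrays, and the ablated brain lay above the wild-type brain with either injection. The averaged log2 difference was 1.59 ± 0.18 (95% interval 1.18 to 1.99), with an adjusted p of 0.000548 from limma over 17132 genes. Ranked by this estimate, Hdc came at place 354 of 17132 from the highest. Among all genes tested, 5.62% rose and 4.54% fell, so 1 riser and 0 fallers among 10 is a share near the background. The 963 higher and 777 lower calls became 963 and 1292 with scaling to the median, 939 and 433 with cyclic loess, and 1043 and 433 with the deposited value table.

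Set side by side, Hdc differed by 1.64 (log2, 3.11-fold) between the Nav1.8Cre-ROSA26DTA arrays and by 1.54 (2.9-fold) between the wild-type arrays. A rise of at least 2-fold was seen for 3.1% of genes in Nav1.8Cre-ROSA26DTA and for 3.41% in wild-type (4.53% and 4.03% in either direction), and Hdc was the only member past it in either genotype. Under normexp Hdc was below that mark, at 0.93 in Nav1.8Cre-ROSA26DTA and 0.95 in wild-type, and with probe means it was 0.96 in Nav1.8Cre-ROSA26DTA. The difference between the 2 responses was 0.10, inside the range of −0.46 to 0.39 that held the middle 80% of all genes. The response was the higher one in Nav1.8Cre-ROSA26DTA for 5 of the 10 members (Hdc, Pomc, Agrp, Crh and Trh), against 45.1% of all genes. These differences have no test.

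The Hdc call depended on the probe used, and its estimate moved with the arrays kept. Without the Nav1.8Cre-ROSA26DTA LPS array the estimate was 1.40, and with any other array left out it was 1.45 to 1.77. Those fits lacked the genotype term, so the genotype difference entered the estimate and the residual. They cannot judge the call. Background correction by normexp gave 0.94, with an adjusted p of 2.21e-05. A second Hdc probe was not well above background on any array. Its scaled signals were 7.99 and 3.05 in Nav1.8Cre-ROSA26DTA and wild-type with LPS, against 6.58 and 1.92 with PBS, and averaging it with the first gave 1.03 with an adjusted p of 0.0726.

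Several cell types can carry Hdc, and their markers were read beside it. Of the 11 mast cell markers on the array, 7 were well above background on no array, against 5515 of all 23462 genes. Among the 7 were the proteases Cpa3, Cma1 and Mcpt4 and the IgE receptor chains Fcer1a and Ms4a2. The summed scaled signal of the mast cell list was 1147 and 1085 with LPS, against 1229 and 1113 with PBS, Nav1.8Cre-ROSA26DTA before wild-type in each pair. Within it Gata2, a transcription factor shared with other cells, rose by 0.92 ± 0.15 (adjusted p 0.00463, and 0.0449 to 0.104 with 1 array left out, failing without any array but the PBS one of Nav1.8Cre-ROSA26DTA). Hpgds, a prostaglandin D synthase, was well above background on 3 of the 4 arrays, with 10.1 and 12.9 with LPS, against 33.3 and 36.7 with PBS. Its measured difference of −1.61 ± 0.33 (adjusted p 0.015) became −0.50 under normexp (0.135), and the call ended with any 1 array left out (0.0674 to 0.157). Kit and Tpsb2 did not pass. Of 6 basophil markers, 5 were well above background on no array, and the list summed to 31.3 and 30.4 with LPS, against 35.8 and 28.3 with PBS.

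Neutrophil genes moved with LPS in the same libraries. Of 12 neutrophil markers tested, 5 rose and 0 fell, against 5.62% and 4.54% of all genes. The risers were the calprotectin chains S100a8 and S100a9, the surface antigen Ly6g, the collagenase Mmp8 and the secreted Retnlg. Under normexp 4 rose and 1 fell, and with no intensity trend 2 rose. Of the 9 well above background on all 4 arrays, 4 rose. Between genotypes 0 of the 12 passed, but 8 had an unadjusted limma p under 0.05, against 10.2% of all genes. The summed signal of the 13 listed genes was 44220 and 41160 with LPS, against 32980 and 41400 with PBS, most of it from Csf3r, the receptor for granulocyte colony-stimulating factor (39110 and 37550 with LPS, against 30150 and 40850 with PBS). Cxcr2, their chemokine receptor, was well above background on no array. S100a8 differed by 1.26 in Nav1.8Cre-ROSA26DTA and by 4.88 in wild-type, where the PBS array read 21.9 against 427 in Nav1.8Cre-ROSA26DTA with PBS. In Nav1.8Cre-ROSA26DTA and wild-type, Hdc differed by 1.64 and 1.54. Ly6g, at 2.45 and 2.82 in the same order, passed with each array left out, whereas S100a8, S100a9, Mmp8 and Retnlg each lost the call in 3 or 4 of the 4 cases, with adjusted p up to 0.53. Without wild-type PBS the estimates were 0.93 for S100a8, 0.85 for S100a9 and 0.90 for Retnlg, against 3.07, 3.05 and 2.40 with all arrays and 5.21, 5.24 and 3.90 without Nav1.8Cre-ROSA26DTA PBS. Mmp8 was 1.44 with all arrays, 0.95 without wild-type PBS and 0.47 under normexp. The part of these cells in the Hdc result was not tested.

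**Figure D2:**
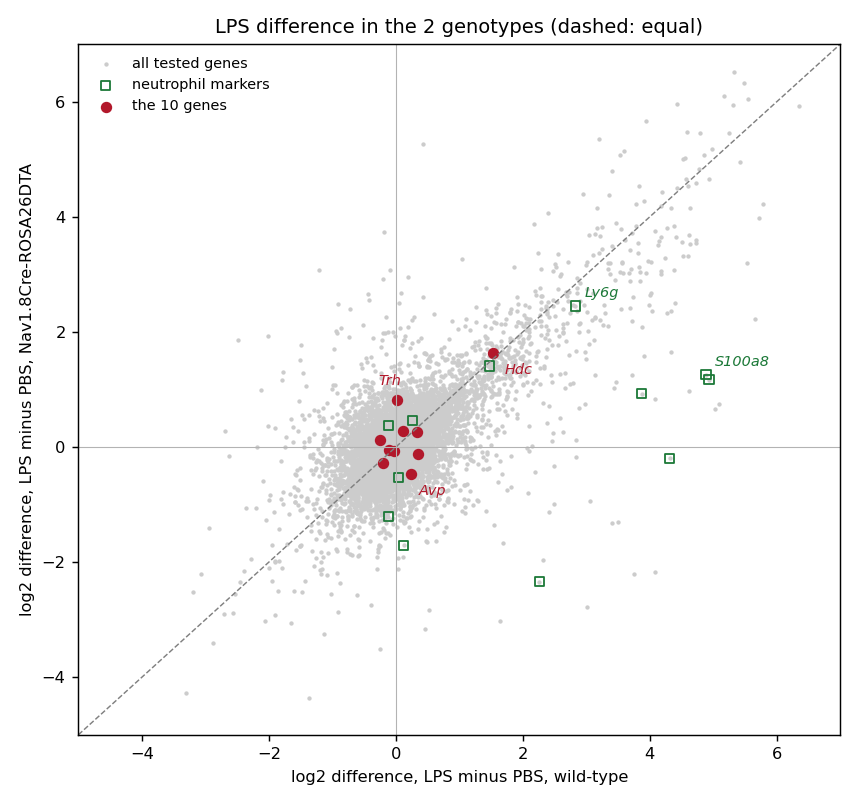
Difference between LPS and PBS (log2) in Nav1.8Cre-ROSA26DTA on the vertical axis and in wild-type on the horizontal axis, 1 point per gene, with all tested genes in grey (6 lie outside the axes), the 10 genes in red, neutrophil markers as green squares and equality dashed. Hdc lies near equality at 1.64 and 1.54, Trh is higher in Nav1.8Cre-ROSA26DTA (0.82 against 0.01), and S100a8 lies far below equality at 1.26 against 4.88.

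Among markers of histaminergic neurons, Hdc was the only one of 6 tested to pass with LPS. The vesicular transporter Slc18a2, which loads histamine into vesicles, had 82.7 and 94.6 with LPS, against 69.7 and 90.6 with PBS (Nav1.8Cre-ROSA26DTA first), and differed by 0.15 ± 0.19 with an adjusted p of 0.689. The autoreceptor Hrh3 differed by 0.03 ± 0.09 (adjusted p 0.889) and Maob by −0.07 ± 0.10 (adjusted p 0.753). The summed signal of the 7 listed genes was 10410 and 9489 with LPS, against 10630 and 8838 with PBS. Lhx9, a transcription factor, was well above background on 1 array and was not tested.

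The wider histamine list had 2 genes up and 2 down of 11 tested, against 5.62% and 4.54% of all genes (1 and 0 with no intensity trend). Besides Hdc, histamine N-methyltransferase (Hnmt), the main route of histamine breakdown in brain, rose, with 2047 and 1867 on the LPS arrays of Nav1.8Cre-ROSA26DTA and wild-type, against 1404 and 1559 on the PBS arrays. Its averaged difference was 0.40 ± 0.11 with an adjusted p of 0.0448. The receptor Hrh1, a Gq-coupled receptor for histamine on neurons and vessels, fell by 0.93 ± 0.10 (adjusted p 0.000501), with 600.3 and 664 on the LPS arrays, against 1125 and 1290 on the PBS arrays. Slc29a4, a low-affinity monoamine transporter, fell by 0.67 ± 0.18 (adjusted p 0.0436), with 265 and 227 with LPS, against 539.9 and 281 with PBS. The gap in Slc29a4 was wide between the Nav1.8Cre-ROSA26DTA arrays (−1.03) and narrow between the wild-type arrays (−0.31).

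The remaining histamine genes did not pass. The receptor Hrh4 differed by −0.06 ± 0.19, the amine oxidase Maoa by −0.31 ± 0.14 and the organic cation transporter Slc22a3 by −0.31 ± 0.32, with adjusted p of 0.892, 0.219 and 0.619. Slc22a2, another organic cation transporter, differed by 0.67 ± 0.29 (adjusted p 0.197), with 0.03 in Nav1.8Cre-ROSA26DTA and 1.33 in wild-type. Aoc1, the diamine oxidase, was well above background on no array, and no probe was matched to Hrh2. With 1 array left out at a time, Hrh1 passed in each case (adjusted p 0.018 to 0.0427), though not without the intensity trend (0.0542). Hnmt passed in none (0.121 to 0.43), and Slc29a4 passed only without the wild-type PBS array (−1.14, adjusted p 0.0331), against −0.20 without Nav1.8Cre-ROSA26DTA PBS (0.651).

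**Figure D3:**
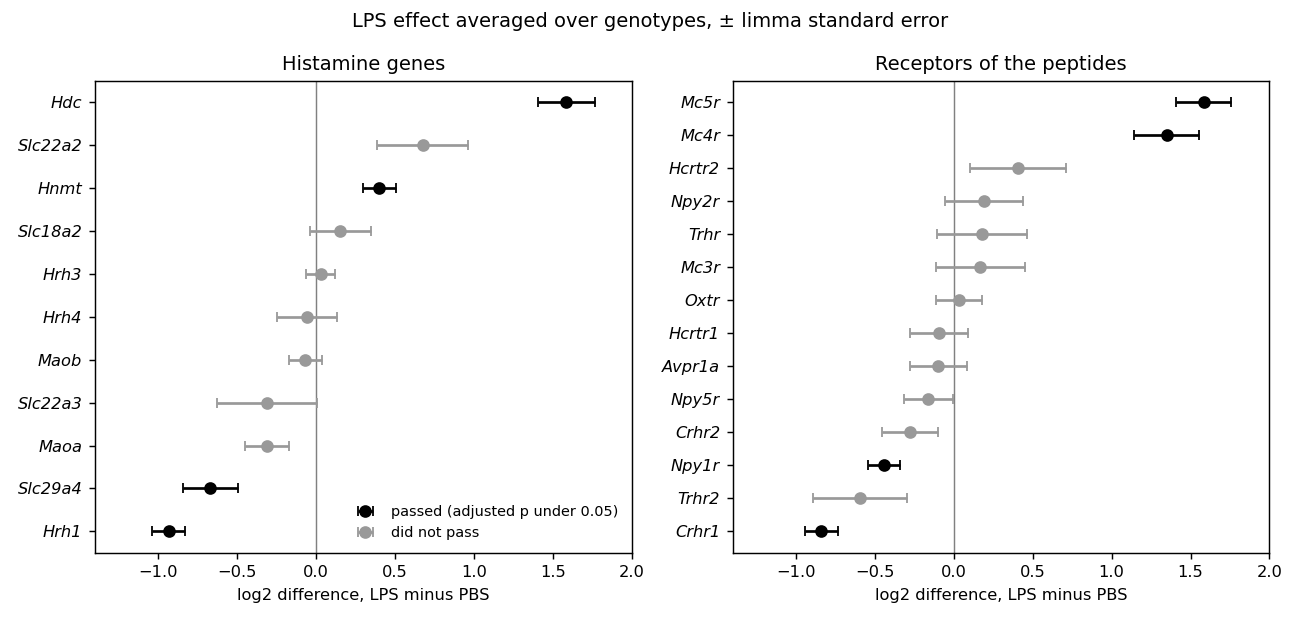
LPS minus PBS (log2, averaged over genotypes, with limma's standard error) for the 11 tested histamine genes on the left and the 14 tested receptors of the peptides on the right, black where the adjusted p was under 0.05 and grey where not. Hdc, Hnmt, Mc5r and Mc4r lie above 0 among the black points, and Hrh1, Slc29a4, Npy1r and Crhr1 below it.

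Of the 9 peptide genes, 0 passed with LPS in limma. At an unadjusted p under 0.05, Npy and Cartpt stood out beside Hdc, 3 of the 10 members, against 23.6% of all genes. The median LPS difference of the 10 members was 0.03, against −0.03 over all genes tested. Both LPS arrays lay above both PBS arrays for 2 members (Hdc and Trh), against 21.7% of all genes, and below them for 1 (Npy), against 29.4%. None of these counts was tested against its background.

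Feeding peptides of the arcuate nucleus showed small differences after LPS. Neuropeptide Y (Npy), a strong stimulant of food intake, had scaled signals of 5018 and 5088 in Nav1.8Cre-ROSA26DTA and wild-type with LPS, against 6078 and 5868 with PBS. The 2 LPS arrays lay close together and below the PBS arrays, an averaged difference of −0.24 ± 0.09 (95% interval −0.44 to −0.04; adjusted p 0.137). Agouti-related peptide (Agrp), which blocks melanocortin receptors and promotes feeding, had 36.9 and 28.6 with LPS, against 30.6 and 26.5 with PBS. The groups overlapped, and the difference was 0.19 ± 0.28 with an adjusted p of 0.743.

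The appetite-suppressing partners overlapped between injections as well. Pro-opiomelanocortin (Pomc), the precursor of adrenocorticotropin, melanocortins and beta-endorphin, had 329 and 189 in Nav1.8Cre-ROSA26DTA and wild-type with LPS, against 303 and 226 with PBS. Wild-type with LPS was the lowest array and Nav1.8Cre-ROSA26DTA with LPS the highest, and the averaged difference was −0.07 ± 0.15 with an adjusted p of 0.829. Cartpt, the precursor of cocaine- and amphetamine-regulated transcript peptides, had 708 and 488 with LPS, against 594 and 389 with PBS. Each genotype was higher with LPS, by 0.25 in Nav1.8Cre-ROSA26DTA and 0.33 in wild-type, yet wild-type with LPS stayed below Nav1.8Cre-ROSA26DTA with PBS. The averaged difference was 0.29 ± 0.11 (95% interval 0.03 to 0.55; adjusted p 0.16).

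Hypocretin, or orexin (Hcrt), sustains wakefulness from a small group of lateral hypothalamic neurons. It had 69.4 and 85.2 in Nav1.8Cre-ROSA26DTA and wild-type with LPS, against 75.2 and 67 with PBS. The injection went with a lower value in the ablated brain (−0.12) and a higher one in the wild-type brain (0.35), and the averaged difference was 0.11 ± 0.21 with an adjusted p of 0.8.

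Releasing hormones of the paraventricular nucleus followed no common course. Corticotropin-releasing hormone (Crh), which starts the stress-hormone cascade, had 676 and 721 with LPS, against 698 and 778 with PBS, Nav1.8Cre-ROSA26DTA first. The 4 arrays lay close together and the groups overlapped, with an averaged difference of −0.08 ± 0.11 (95% interval −0.32 to 0.17; adjusted p 0.728). Thyrotropin-releasing hormone (Trh), which drives the thyroid axis, had 156 and 116.5 with LPS, against 88.4 and 115.5 with PBS.

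Trh was highest in Nav1.8Cre-ROSA26DTA with LPS and lowest in Nav1.8Cre-ROSA26DTA with PBS, while the 2 wild-type arrays were almost equal. Its difference was 0.82 in Nav1.8Cre-ROSA26DTA and 0.01 in wild-type, averaging 0.42 ± 0.22 with an adjusted p of 0.292. The gap of 0.81 between these responses lay outside the −0.46 to 0.39 of the middle 80% of all genes. It stayed below the 2-fold mark that 2.5% of genes passed in either direction and 0.967% upward, and it has no test. Under normexp the gap was 0.40 and the difference in Nav1.8Cre-ROSA26DTA 0.42.

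The neurohypophyseal hormones are encoded by neighbouring genes, Avp being the next protein-coding gene to Oxt. Vasopressin (Avp), which retains water and acts with Crh on the pituitary, was read close to the limit of the array, at 1.42 to 2.47 times the lowest signal that counted as well above background. It had 17.9 and 14.6 in Nav1.8Cre-ROSA26DTA and wild-type with LPS, against 24.7 and 12.3 with PBS. The LPS arrays lay between the 2 PBS arrays, and the difference was −0.11 ± 0.38 (95% interval −0.96 to 0.74; adjusted p 0.9). Oxytocin (Oxt), known for parturition, lactation and social behaviour, had 47.1 and 50.4 with LPS, against 49.2 and 51.4 with PBS. Its arrays differed by less than the scanner's error of about 11%, and the averaged difference was −0.05 ± 0.23 with an adjusted p of 0.936.

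**Figure D4:**
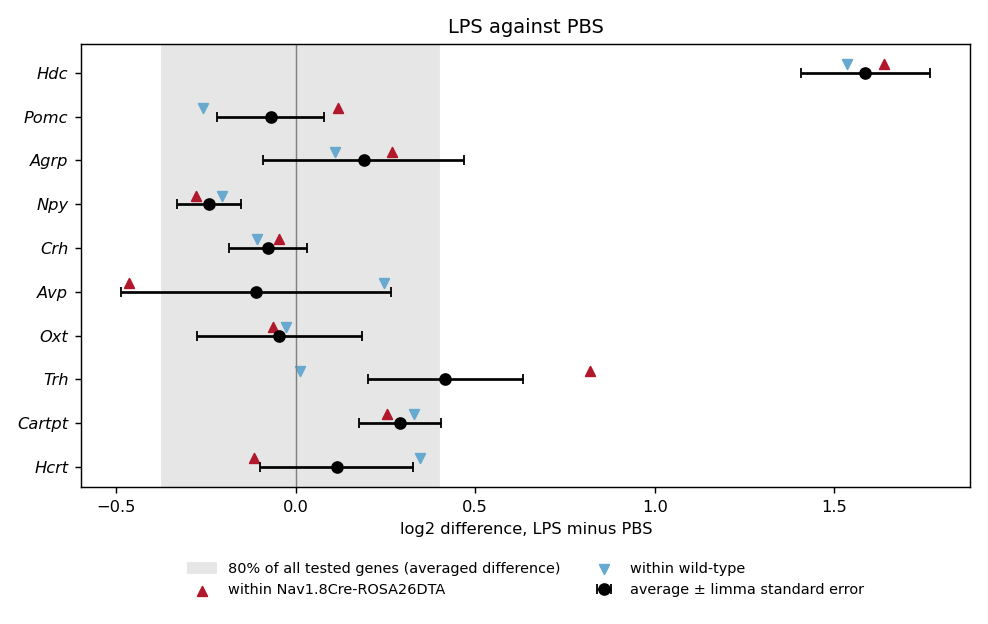
LPS minus PBS (log2) for the 10 genes: black points with bars give the average over genotypes and limma's standard error, triangles the difference within Nav1.8Cre-ROSA26DTA (pointing up) and within wild-type (pointing down), and the grey band the middle 80% of averaged differences over all tested genes. Hdc at 1.59 stands apart from the other 9 genes, and the triangles of Trh lie far apart (0.82 in Nav1.8Cre-ROSA26DTA, 0.01 in wild-type).

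Receptors of these peptides moved in both directions with LPS, 2 up and 2 down of 14 tested, against 5.62% and 4.54% of all genes. With no intensity trend the counts were 2 and 0. The melanocortin receptors Mc5r and Mc4r, on which Pomc products and Agrp act, rose. Mc5r had 260.1 and 165 with LPS, against 95.5 and 49.9 with PBS, a difference of 1.58 ± 0.17 (adjusted p 0.000441). Mc4r, the receptor that restrains feeding, had 115 and 96 with LPS, against 45.7 and 37.2 with PBS, a difference of 1.35 ± 0.21 (adjusted p 0.00323). For both genes the LPS arrays lay above the PBS arrays, with Nav1.8Cre-ROSA26DTA above wild-type in each pair.

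The Crh receptor Crhr1, which mediates the stress response in pituitary and forebrain, fell by 0.84 ± 0.10 (adjusted p 0.000977), with 919.8 and 1006 with LPS, against 1773 and 1668 with PBS. The Npy receptor Npy1r fell by 0.44 ± 0.10 (adjusted p 0.0217), with 1505 and 1510 with LPS, against 1932 and 2171 with PBS. Of 8 neuron markers, 2 were lower with LPS and 0 higher, against 4.54% and 5.62% of all genes. The lower ones were 1 of 8 with quantile normalization, cyclic loess, the value table, probe means and the percentile over probes measured on all arrays. The count was also 1 of 8 when only genes well above background on all 4 arrays were fitted, and 0 with no intensity trend. These markers summed to 174900 and 183800 with LPS, against 200200 and 208200 with PBS. Their part in the falls of Crhr1, Npy1r, Hrh1, Tac1 and Bdnf was not tested. No receptor of vasopressin, oxytocin, thyrotropin-releasing hormone or orexin passed. With each array left out, Crhr1 passed throughout (adjusted p 0.0168 to 0.0378, but 0.0804 without the intensity trend) and Npy1r never did (0.0912 to 0.245). Mc4r failed without either wild-type array or without Nav1.8Cre-ROSA26DTA LPS (up to 0.135), and Mc5r failed without Nav1.8Cre-ROSA26DTA LPS or wild-type PBS (up to 0.216). Under normexp Mc4r was 0.52 (adjusted p 0.0416) and Mc5r 1.04, and with probe means Mc5r was 0.86 (0.0426).

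Other neuroendocrine peptides split 3 up and 6 down of 26 tested, against 5.62% and 4.54% of all genes. The split was 1 up and 6 down of the 22 that were well above background on all 4 arrays. The lower ones numbered 7 under normexp, 3 with probe means, 2 with cyclic loess and 0 with no intensity trend. Prok2, a peptide of circadian output that myeloid cells also make, had 139 and 303 with LPS and was not well above background with PBS, so it was at least 23.5-fold higher. Ucn, the Crh relative urocortin, was likewise at least 2.58-fold higher, with 32.6 and 15.6 with LPS. Both entered the test only through the LPS arrays, where they are high, so their calls (adjusted p 3.22e-05 and 0.0161) support nothing further. Such bounds set the mean of the LPS arrays against the mean, over the PBS arrays, of the gene's own signal or the array's detection limit (its lowest well-above-background signal), whichever was higher. They hold for the scaled signal only and are not lower limits under other processing. Under normexp Ucn differed by 0.25 (log2), and the lowest Prok2 estimate among settings with all arrays was 1.7 (log2). Nmb, neuromedin B, rose by 0.93 ± 0.16 (adjusted p 0.00513), and Tac1, the substance P precursor, fell by 0.82 ± 0.12 (adjusted p 0.00271). Nmb passed only without wild-type LPS (1.46, adjusted p 0.0077) and was 0.40 without Nav1.8Cre-ROSA26DTA LPS (0.51), and Tac1 failed without either Nav1.8Cre-ROSA26DTA array (up to 0.074).

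Genes that cut, amidate or package peptide hormones gave 0 calls of 13 in limma, against 10.2% of all genes in either direction. At an unadjusted limma p under 0.05 there was 1 of 13, against 23.6%, and the estimates were −0.42 to 0.10. With scaling to the median, and with no filter on dim probes, 1 of the 13 was called lower. The corticotropin and glucocorticoid list gave 3 up and 2 down of 11, against 5.62% and 4.54% of all genes. In this list 0 fell with cyclic loess or the value table, and 1 rose and 0 fell with no intensity trend. Fkbp5, the receptor co-chaperone induced by glucocorticoids, rose by 1.71 ± 0.09 (adjusted p 4.84e-06), with 5545 and 6062 with LPS, against 1640 and 1929 with PBS. Sgk1, a glucocorticoid-induced kinase, rose by 0.77 ± 0.09 (adjusted p 0.000605) and Tsc22d3, or Gilz, by 0.51 ± 0.09 (adjusted p 0.00617). Crhbp, which binds and buffers Crh, fell by 0.45 ± 0.12 (adjusted p 0.0411). Fkbp5 and Sgk1 passed with each array left out (Sgk1 not without the intensity trend, 0.0771), but Tsc22d3 (0.0574 to 0.12) and Crhbp (0.15 to 0.629) did not pass in any such case, and Crhbp differed by −0.24 without Nav1.8Cre-ROSA26DTA PBS and −0.27 without wild-type LPS.

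In the thyroid list, 2 genes rose and 1 fell of 10, against 5.62% and 4.54% of all genes. The counts were 0 and 1 with no intensity trend, and 5 and 2 with no filter on dim probes. Slco1c1, the thyroxine transporter of the blood-brain barrier, fell by 1.60 ± 0.12 (adjusted p 4.55e-05), with 212 and 257 with LPS, against 690.3 and 728 with PBS. Dio2, the enzyme that activates thyroxine, rose by 0.52 ± 0.11 (adjusted p 0.0188), and Klf9, a thyroid- and glucocorticoid-responsive factor, by 0.37 ± 0.09 (adjusted p 0.0273). Slco1c1 passed with each array left out, Klf9 in none (0.126 to 0.265) and Dio2 only without Nav1.8Cre-ROSA26DTA PBS (0.0281, against up to 0.326), with 0.30 without wild-type PBS. Of 7 brain endothelium markers 2 rose and 3 fell, and they summed to 18350 and 22550 with LPS, against 11610 and 11080 with PBS. Their median difference was only 0.10, with −0.15 in Nav1.8Cre-ROSA26DTA and 0.34 in wild-type, so the sum does not describe the list as a whole. Of 7 tested tanycyte and ependyma markers, a list that holds Dio2, 4 rose and 0 fell (9290 and 8116 summed, against 7339 and 5498). The risers numbered 2 with cyclic loess or normexp and 0 with no intensity trend. With no intensity trend, 1 endothelium marker rose and 0 fell. Of 5 tested choroid plexus markers 1 rose and 0 fell (1066 and 907, against 414 and 247). The part of these cell types in the Slco1c1 and Dio2 results was not tested.

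Energy-balance signals gave 2 genes up and 1 down of 11, against 5.62% and 4.54% of all genes (1 and 1 with no intensity trend). Socs3, which damps leptin and cytokine receptors, rose by 1.76 ± 0.12 (adjusted p 1.73e-05), with 985 and 821 with LPS, against 296 and 239 with PBS. Stat3, the factor those receptors activate, rose by 0.62 ± 0.09 (adjusted p 0.00304). Bdnf, a growth factor that acts below Mc4r in feeding circuits, fell by 1.09 ± 0.13 (adjusted p 0.000662), with 215 and 293 with LPS, against 492 and 582 with PBS. Socs3 passed with each array left out, Stat3 only without Nav1.8Cre-ROSA26DTA PBS (0.0434, against up to 0.135) and Bdnf only without wild-type LPS (0.013, against up to 0.0921).

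Between genotypes, 0 of the 10 members passed in limma, against 0.409% of all genes tested. At an unadjusted p under 0.05 there were 2 of 10 (Pomc and Cartpt), against 10.2% of all genes. Both Nav1.8Cre-ROSA26DTA arrays lay above both wild-type arrays for 4 members (Pomc, Agrp, Avp and Cartpt), against 16.1% of all genes, and below them for 2 (Crh and Oxt), against 12.8%. The sign was the same with LPS and with PBS for 7 of the 10, against 55.7% of all genes. The median genotype difference of the 10 was 0.15, against 0.02 over all genes. The lists of related genes gave 0 genotype calls. At an unadjusted limma p under 0.05 there were 7 of 14 receptors, 4 of 10 thyroid genes and 3 of 11 energy-balance genes. The counts were 2 of 11 for histamine genes, 4 of 26 for other peptides, 1 of 11 for the corticotropin list and 0 of 13 for peptide processing. The share over all genes was the 10.2% above, and none of these counts was tested against it.

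Cartpt came nearest to the threshold, at 0.57 ± 0.11 (95% interval 0.31 to 0.83; adjusted p 0.083). Its arrays, given above, stood 0.54 higher in Nav1.8Cre-ROSA26DTA with LPS and 0.61 higher with PBS. Pomc differed by 0.61 ± 0.15 (95% interval 0.27 to 0.95; adjusted p 0.144), by 0.80 with LPS and 0.42 with PBS. Both calls depended on the processing, with adjusted p for Cartpt of 0.0376 under scaling to the median, 0.0109 under normexp and 0.000584 with no filter on dim probes. For Pomc they were 0.0355 under normexp and 0.0071 with no filter, whereas the other settings that kept all arrays gave values above the threshold. With 1 array left out, the estimate was 0.41 to 0.74 for Cartpt and 0.48 to 0.74 for Pomc. Those fits lacked the injection term, so the LPS differences of all genes entered the residual, and they cannot judge either call.

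Pituitary tissue attached to a brain would carry Pomc, and its markers were read beside that gene. Of 12 pituitary markers, 6 were well above background on no array, including Tshb, Cga and Pou1f1, against 5515 of all 23462 genes. Growth hormone (Gh) had 30.2 and 17.4 with LPS, against 118 and 3.5 with PBS, Nav1.8Cre-ROSA26DTA first, and prolactin (Prl) had 28.1 and 49, against 126 and 2.89. On the wild-type PBS array neither was well above background. The list summed to 342 and 283 with LPS, against 514 and 229 with PBS. The sum was higher in Nav1.8Cre-ROSA26DTA with each injection, but Prl was lower there with LPS. The part of pituitary RNA in the Pomc values was not tested.

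Of 5 oligodendrocyte markers, 1 was called higher in Nav1.8Cre-ROSA26DTA and 0 lower, against 0.304% and 0.105% of all genes. All 5 had an unadjusted limma p under 0.05, against 10.2% of all genes. Mobp, a myelin protein gene, was 1.31 ± 0.15 higher in Nav1.8Cre-ROSA26DTA (limma adjusted p 0.00943). The adjusted p was 0.0516 with cyclic loess, 0.0969 with probe means and 0.427 without the intensity trend. With 1 array left out the estimate was 0.86 to 1.76. The other 4 of the 5 markers had adjusted p of 0.0504 to 0.123. The list summed to 90520 and 40710 with LPS, against 81550 and 56100 with PBS. Its part in the genotype differences of the peptides was not tested.

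The remaining members differed less between genotypes, or less steadily. Avp differed by 0.66 ± 0.38 (95% interval −0.19 to 1.51; adjusted p 0.628), with 0.30 under LPS and 1.01 under PBS. It was the only member past 2-fold between the PBS arrays, where 1.21% of genes were that much higher in Nav1.8Cre-ROSA26DTA and 1.62% differed that much in either direction. Under normexp this difference was 0.40, below the mark, and with probe means Hdc also passed it, at 1.03. Between the LPS arrays 0 members differed 2-fold, against 1.2% of genes. Hdc differed by 0.32 ± 0.18 (adjusted p 0.617), with 0.37 under LPS and 0.27 under PBS, and Agrp by 0.29 ± 0.28 (adjusted p 0.808).

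Crh differed by −0.13 ± 0.11 (adjusted p 0.778) and Oxt by −0.08 ± 0.23 (adjusted p 0.948). Both Oxt probes were well above background on all arrays but disagreed on genotype. The probe used gave −0.10 with LPS and −0.06 with PBS, and the other gave 0.41 and 0.58. Npy (0.02 ± 0.09), Trh (0.02 ± 0.22) and Hcrt (−0.06 ± 0.21) had adjusted p of 0.98, 0.991 and 0.958.

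**Figure D5:**
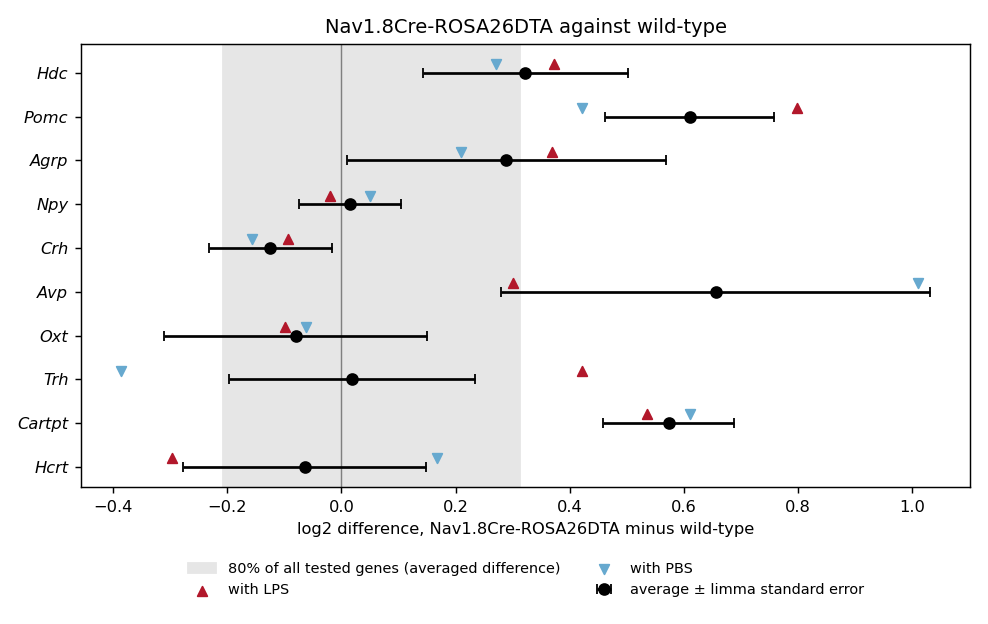
Nav1.8Cre-ROSA26DTA minus wild-type (log2) for the 10 genes: black points with bars give the average over injections and limma's standard error, triangles the difference with LPS (pointing up) and with PBS (pointing down), and the grey band the middle 80% of averaged differences over all tested genes. The averages of Pomc (0.61), Cartpt (0.57) and Avp (0.66) lie to the right of the band, and Trh has triangles on both sides of 0 (0.42 with LPS, −0.39 with PBS).

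The genes whose pattern over the 4 arrays was nearest to that of Hdc were Dna2, Dmgdh, Itgb2, B4galt1 and Ada. They were the 5 with the smallest Euclidean distance between log2 profiles centred on their mean, at 0.10, 0.11, 0.12, 0.13 and 0.13. Dna2 encodes a nuclease-helicase, Dmgdh a mitochondrial dehydrogenase, Itgb2 the beta chain of leukocyte integrins, B4galt1 a galactosyltransferase and Ada adenosine deaminase. Their averaged LPS differences were 1.54, 1.54, 1.53, 1.66 and 1.61 in the same order. With 4 arrays this likeness is a description only.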

How the data were processed

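Total RNA of 4 whole brains or pools was read on single-colour Agilent arrays. The deposited processed signal is, per the file headers, a spot intensity corrected by the scanner software for background and spatial trend; flags for spots well above background come from the same files. Agilent Feature Extraction is version 11.0.1.1 per the submitters' processing notes and 12.0.3.1 per the headers. The deposited value table holds the same intensity times 1 factor per array (1.57, 1.83, 2.09 and 1.82 for Nav1.8Cre-ROSA26DTA LPS, wild-type LPS, Nav1.8Cre-ROSA26DTA PBS and wild-type PBS), matching within 0.1% for at least 59304 of 59305 spots; its column medians were 102, 103, 91.4 and 97.2; the origin of the factors is unknown here.

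Values were log2 processed signal minus each array's 75th percentile, spots of a probe averaged. Accessions were named through a GRCm38.p6 gene table (33767 of 56605 probes named). Of several probes, the one detected on most arrays (ties: highest mean) stood for a gene. Genes measured on at least 2 arrays (17132 of 23462) entered limma 3.58.1 (R 4.3.3; lmFit, eBayes with intensity trend) with genotype and injection terms, two-sided, Benjamini-Hochberg threshold 0.05. The single residual degree of freedom was pooled with 7.99 prior ones, so p-values measure the spread between these arrays, not between animals, and a true difference of response counts as error. Arrays were left out one at a time in fits with the compared term only. The other factor then fell into the residual and, the 2 sides being unequal, also into the estimate. Normexp (offset 50) used the median foreground signal. The members and lists were chosen with earlier results of these data known. Named were all members, all histamine genes, the receptors that passed, at most 4 passing genes of each other list by size of effect, and the 5 genes most like Hdc; marker genes, and gaps between arrays or probes singled out in the text, were chosen after their values were seen. Promoters of Agrp and Crh are not shown. No probe was matched to Hrh2, Asip or Tpsab1. A list of hypothalamic transcription factors is not reported here.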

Additional observations from a re-analysis of the deposited data

Results flagged for a closer look

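For 3 members the LPS difference ran in opposite directions in the 2 genotypes, as it did for 32.6% of all genes tested. Avp was lower with LPS in Nav1.8Cre-ROSA26DTA (−0.464, log2) and higher in wild-type (0.245), and its signals lay near the limit of the array. Hcrt had −0.117 in Nav1.8Cre-ROSA26DTA and 0.347 in wild-type. Pomc ran the other way, with 0.118 in Nav1.8Cre-ROSA26DTA and −0.258 in wild-type. With 1 array in a group these differences were not tested.

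For 3 members the difference between genotypes changed direction with the injection, where 55.7% of all genes kept theirs. Trh was higher in Nav1.8Cre-ROSA26DTA than in wild-type with LPS (0.422) and lower with PBS (−0.385). Hcrt had −0.296 with LPS and 0.168 with PBS. Npy had −0.02 with LPS and 0.0509 with PBS, both within the scanner's error of 10%. These differences were not tested either.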

How the results depend on the processing

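No paired analysis was possible because each group has 1 array and the labels give no replicate numbers. The design, with 1 array per group and 1 residual degree of freedom, limits the precision of every value, and the signals of Avp lay near the limit of the array. Under 10 alternatives with all arrays, the Hdc estimate was 0.94 to 1.66, and its call ended only with the mean of all probes (1.03), where 0 members were called higher with LPS. With an array left out it was 1.40 to 1.77, in fits that lacked the genotype term and so cannot judge the call. With an array left out, and the other factor then in the residual, most calls of related genes ended in at least 1 case; these 2 changes were not separated. Calls of related and marker genes also ended with no intensity trend (most of those named, adjusted p 0.0542 to 0.261, and 0.427 for Mobp between genotypes), cyclic loess (Slc29a4, Npy1r, Crhbp, Retnlg, and Mobp between genotypes; up to 0.092), the value table (Slc29a4, Npy1r, Crhbp; up to 0.0903), the percentile over probes measured on all arrays (Slc29a4, Crhbp; up to 0.064), probe means (Slc29a4, Stat3, S100a9, Retnlg, and Mobp between genotypes; up to 0.0969), normexp (Ucn, Mmp8, Hpgds; up to 0.575) and median scaling (Hnmt, Klf9; up to 0.0545). Maoa was called only with normexp (0.0337) and Slc22a2 only with no dim filter (0.0436).

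Numbers of genes called moved with the setting. Lower with LPS were 1292 with scaling to the median, 433 with cyclic loess and with the value table, 504 with probe means, 1567 with no dim filter, 48 with no intensity trend and 70 to 187 with an array left out, against 777. Higher with LPS were 1583 with no dim filter, 382 with no trend and 370 to 514 with an array left out, against 963. Higher in Nav1.8Cre-ROSA26DTA were 166 (median scaling), 25 (percentile over probes measured on all arrays), 97 (quantile), 15 (cyclic loess), 258 (normexp), 20 (value table), 654 (no dim filter) and 11 (probe means), against 52. Lower there were 31, 8, 28, 4, 125, 8, 304 and 1 in the same order, against 18. With no trend, and with any array left out, limma called 0 in either direction (1476 and 239 to 790 genes at an unadjusted p under 0.05). Members higher in Nav1.8Cre-ROSA26DTA numbered 1 under median scaling (Cartpt), and 2 under normexp and with no dim filter (Pomc and Cartpt).

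Some estimates changed sign. With all arrays these lay near 0, and the cause was not tested. With an array left out, the estimate also took in part of the other factor's difference. The Hdc genotype estimates thus held part of its LPS difference, and such sign changes do not measure the steadiness of a gene. With all arrays, the LPS estimate became −0.0651 for Agrp (normexp) and 0.0244 for Oxt (value table). With an array left out, the LPS estimates that changed sign ran from −0.155 to 0.00123 for Crh, −0.0143 to 0.596 for Cartpt, −0.469 to 0.329 for Pomc, −0.615 to 0.396 for Avp, −0.0334 to 0.263 for Hcrt and −0.0949 to 0.00453 for Oxt. Genotype estimates became −0.00787 (cyclic loess), −0.00594 (normexp) and −0.0215 (value table) for Npy, −0.0184 (value table) for Trh and 0.207 (probe means) for Oxt. With an array left out they ran from −0.496 to 1.14 for Hdc, −0.123 to 0.154 for Npy, −0.392 to 0.429 for Trh and −0.237 to 0.109 for Hcrt. Among histamine genes, the LPS estimate became −0.0257 for Hrh3 (median scaling), −0.0177 for Slc18a2 (normexp), 0.0105 and 0.0858 for Hrh4 (value table, probe means) and 0.00256 for Maob (value table). With an array left out these ran from −0.118 to 0.178, −0.0347 to 0.344, −0.229 to 0.111 and −0.169 to 0.0353 in the same order, and from −0.683 to 0.0668 for Slc22a3. No member passed for LPS apart from Hdc in any of these settings.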
